A study of Homo sapiens with 2 samples.

Results

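The genes described here are 10 regulators of mitochondrial biogenesis: the GA-binding protein subunits GABPA, GABPB1 and GABPB2, the factors NRF1, ESRRA and YY1, the PGC-1 coactivators PPARGC1A, PPARGC1B and PPRC1, and the mitochondrial factor TFAM. They were taken by gene name from 2 tables of 25277 rows each. All 10 had exactly 1 row, and no row joined a member with another gene. The tables come from HEK293 cells, a human embryonic kidney line, of WT or PERK-KO genotype at passage 15 to 20, both kept for 12 h in OXPHOS medium, which lacks glucose. PERK, encoded by EIF2AK3, is a kinase of the ER membrane that phosphorylates eIF2α. The PERK-KO cells were made with CRISPR/Cas9 and grown from single cells, so a difference between the genotypes cannot be told apart from one between clones, cultures or libraries. The study asked whether loss of PERK changes gene expression while the cells depend on oxidative phosphorylation.

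Most proteins of mitochondria are encoded in the nucleus, and their genes are switched on together by a small set of factors. GABPα is an ETS-family protein that binds DNA at a GGAA core, and GABPβ subunits bring the activating domain to it. NRF1 binds GC-rich sites in promoters of respiratory genes, and both factors are known to act on TFAM, whose product packages mitochondrial DNA and starts its transcription. The PGC-1 coactivators bind no DNA themselves and work through NRF1, ERRα (the product of ESRRA) and other factors. PGC-1α, the product of PPARGC1A, is best known from brown fat and muscle, while YY1 is a zinc finger protein that can recruit PGC-1α to mitochondrial genes.

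Each genotype had 1 sample, so nothing was tested and replicate spread is unknown. Levels are in FPKM, fragment counts scaled by transcript length and library size, with the confidence limits deposited beside each value. These limits, and the 95% interval of each ratio computed from them, cover counting and read assignment within a library but no variation between cultures. Library totals were not in the tables. In RNA from a whole culture, fewer cells with a transcript and less of it in each cell cannot be told apart. Read as counting error alone, the width of the limits of the 10 genes corresponded to between 28.7 (PPARGC1A) and 1900 (PPRC1) fragments in WT cells and between 39.3 and 2445 for the same genes in PERK-KO cells. EIF2AK3 itself stood at 5.61 FPKM (limits 5.11 to 6.12) for WT against 3.89 (3.44 to 4.34) for PERK-KO, with limits apart. Its ratio was 0.693, and its transcript was still detected in the PERK-KO library. Of 5 markers of the line, VIM and KRT18 were above 200 FPKM in both samples and PAX2 was below 1 in both. IRS4 had 0.121 in WT against 27.1 in PERK-KO, and NEFM had 0.662 and 5.21, so these 2 HEK293 markers were below 1 FPKM in the WT library alone. No source used here states that the WT cells were the stock from which the PERK-KO cells were made, and a difference in parental stock cannot be told apart from the genotype. The part of this difference between the libraries in the results below was not tested. The adipocyte markers UCP1, CIDEA and FABP4 were listed at 0 in both samples. PPARG had 7.78 FPKM in WT against 7.95 in PERK-KO, ADIPOQ had 1.68 and 1.42, and PLIN1 was below 1 in both. The summed FPKM of all 6 adipocyte markers was 9.68 for WT and 9.51 for PERK-KO, most of it from PPARG. Summed markers of leukocytes, fibroblasts and hepatocytes were each below 1 FPKM in both.

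Promoter sequence was read around the start of the canonical GENCODE transcript on GRCh37, the genome build of the tables, because the study is concerned with the GABPα motif. The window ran from 270 bases before the start through its first 30 bases. On both strands it was searched for CCGGAAG (GABP), GCGCANGCG (NRF1), TNAAGGTCA (ERR), GCCATNTT (YY1) and TGACGTCA (CRE, the site of CREB, which is known to switch on PPARGC1A, and which reads the same on both strands). The 150 bases before the start are printed for the 4 genes with a match there and for the 3 genes that stood apart in expression, PPARGC1B, PPRC1 and YY1, which had none. Capitals mark the matched letters, and each run is written 5′ to 3′ on the strand of the gene.
GABPA (chr21:27107133-27107282, plus strand): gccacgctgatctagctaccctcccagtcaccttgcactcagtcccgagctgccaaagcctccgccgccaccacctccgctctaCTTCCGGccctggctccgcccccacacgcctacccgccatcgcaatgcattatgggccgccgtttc
TFAM (chr10:60145020-60145169, plus strand): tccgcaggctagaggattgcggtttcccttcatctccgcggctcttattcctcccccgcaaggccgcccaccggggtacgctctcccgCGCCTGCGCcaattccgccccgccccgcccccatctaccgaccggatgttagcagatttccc
ESRRA (chr11:64072846-64072995, plus strand): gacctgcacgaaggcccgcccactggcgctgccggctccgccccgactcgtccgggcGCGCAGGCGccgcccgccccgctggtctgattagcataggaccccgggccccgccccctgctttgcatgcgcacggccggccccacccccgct
PPARGC1A (chr4:23891671-23891820, minus strand): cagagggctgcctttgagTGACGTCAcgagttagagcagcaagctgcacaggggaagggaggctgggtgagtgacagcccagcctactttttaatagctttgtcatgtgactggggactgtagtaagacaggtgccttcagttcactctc
PPARGC1B (chr5:149109723-149109872, plus strand): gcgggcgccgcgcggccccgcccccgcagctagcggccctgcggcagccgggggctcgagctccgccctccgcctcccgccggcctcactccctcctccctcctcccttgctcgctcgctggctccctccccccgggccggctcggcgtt
PPRC1 (chr10:103892647-103892796, plus strand): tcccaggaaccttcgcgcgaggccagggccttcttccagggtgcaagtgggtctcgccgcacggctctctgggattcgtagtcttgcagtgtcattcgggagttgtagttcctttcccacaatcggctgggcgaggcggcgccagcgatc
YY1 (chr14:100705331-100705480, plus strand): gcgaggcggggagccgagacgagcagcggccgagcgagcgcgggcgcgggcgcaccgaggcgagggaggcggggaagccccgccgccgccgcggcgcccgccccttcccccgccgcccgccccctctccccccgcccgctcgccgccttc

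The GABP letters were present in 1 of the 10 windows, that of GABPA itself, at -66 to -60, counting the base before the start as -1. They were in 19.3% of the 12750 promoters of protein-coding genes that reached 1 FPKM in either sample and in 14.2% of all 19881 promoters. The NRF1 letters were present in 4 of the 10 windows, compared with 15.3% of promoters of the expressed genes and 11.1% of all promoters. They lay at -62 to -54 in TFAM, -93 to -85 in ESRRA, -265 to -257 in GABPB1 and -270 to -262 in NRF1. The CRE letters were found in PPARGC1A alone, at -132 to -125 (2.76% of all promoters), and the YY1 letters in GABPB2 alone, at bases 1 to 8 of the transcript (7.15%). The ERR letters were in no member and in 0.573% of all promoters. The window of PPARGC1A also differed in base composition, with 45.3% G and C and 3 CG pairs, where the other 9 had from 53.3% to 79.7% and from 18 to 45 CG pairs. A match is a description of the letters and not evidence of binding. Only exact letters were searched, so the lack of a match does not show that a site is absent. Transcript starts are those of GENCODE, and the loci in the tables began elsewhere. They began further upstream by 379 bases for YY1, 267 for TFAM, 210 for GABPB1, 157 for GABPB2, and 6 to 58 for 5 others, while that of ESRRA began 48 bases downstream. The YY1 letters of GABPB2 therefore lie further inside the locus of the tables, and the NRF1 letters of TFAM lie inside its locus. The whole window of YY1 lies inside its locus, so the bases before that locus were not searched.

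**Figure D1:**
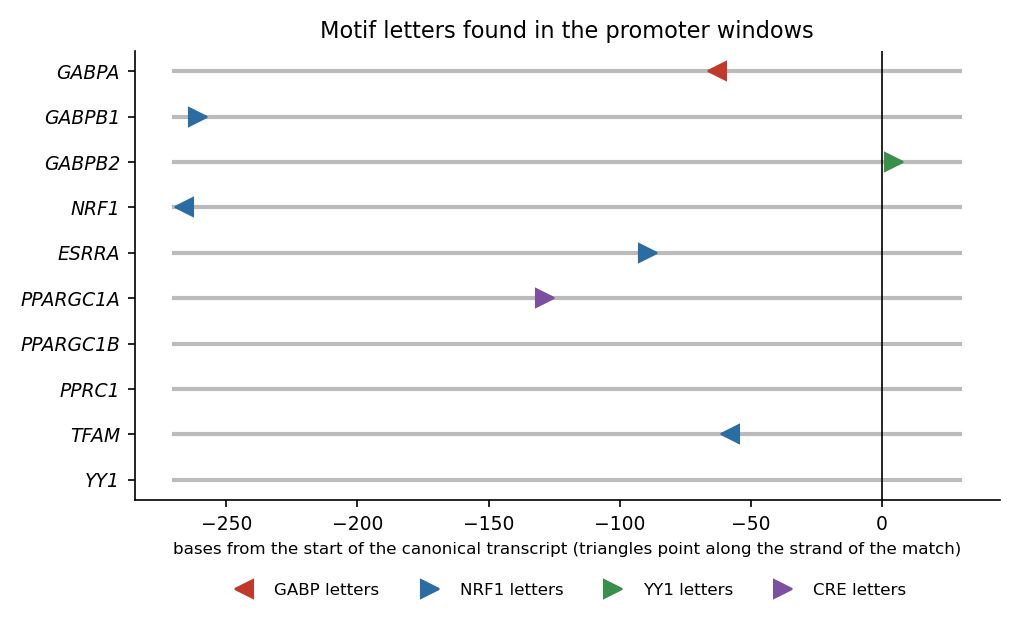
Positions of the motif letters in the promoter windows of the 10 genes. The x axis gives the distance in bases from the start of the canonical transcript, grey lines are the windows searched, and triangles are matches pointing along their strand. GABPA held the only GABP match, 4 genes held NRF1 letters, and PPARGC1B, PPRC1 and YY1 held no match.

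At the level of expression, 9 of the 10 genes reached an FPKM of at least 1 in either sample, and PPARGC1A did not. In WT cells YY1 was the highest, followed by TFAM, ESRRA and PPRC1, then by GABPB1, GABPA and NRF1, and last by GABPB2, PPARGC1B and PPARGC1A. The limits of TFAM and ESRRA overlapped, as did those of GABPB1 with GABPA and of GABPA with NRF1, so these neighbours were not separated at this depth. The order in PERK-KO cells was the same but for PPRC1, which stood above ESRRA there. TFAM, PPRC1 and ESRRA then formed a group in which neighbours overlapped, GABPA overlapped with NRF1, and the limits of GABPB1 and GABPA no longer did, although the lower limit of GABPB1 (10.033) was barely above the upper limit of GABPA (10.032). FPKM is scaled by transcript length, but the ratio of the samples still moved with length, as described below, so the order of genes of unlike length, such as PPRC1 and ESRRA, carries that limit.

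**Figure D2:**
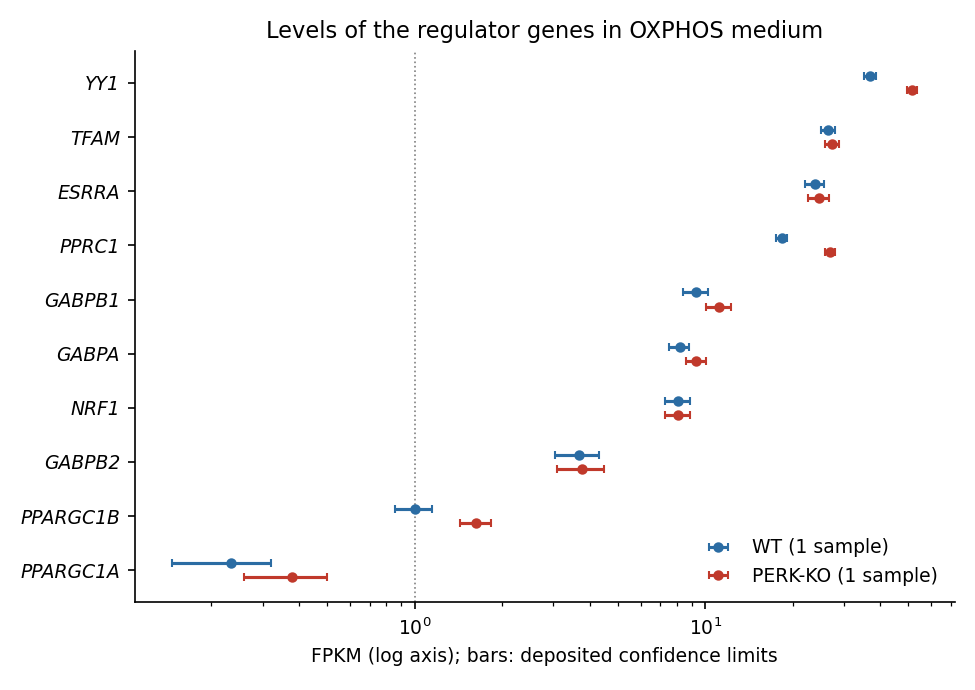
FPKM of the 10 regulator genes in the WT and PERK-KO samples (log axis, 1 sample per genotype), with bars for the deposited confidence limits and a dotted line at an FPKM of 1. The limits of the 2 samples lie apart for YY1, PPRC1 and PPARGC1B and overlap for the other 7 genes.

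All 3 GABP subunits had overlapping limits in the genotypes. GABPA (chromosome 21 from 27107258 to 27144771, plus strand, 10 exons in the canonical transcript), the DNA-binding subunit, had an FPKM of 8.16 (7.52 to 8.80) in WT against 9.29 (8.56 to 10.03) in PERK-KO. The limits overlapped, and the ratio of PERK-KO to WT was 1.14 with an interval of 1.02 to 1.27. GABPB1 (chromosome 15 from 50569389 to 50647605, minus strand, 9 exons), which encodes the β1 subunit, had 9.28 (8.35 to 10.2) and 11.1 (10.03 to 12.2), a ratio of 1.20 (1.05 to 1.38), again with overlapping limits. GABPB2 (chromosome 1 from 151043080 to 151091007, plus strand, 9 exons), encoding the β2 subunit, had 3.68 (3.03 to 4.32) and 3.78 (3.08 to 4.48), a ratio of 1.03 (0.800 to 1.32). Thus the ratio intervals of GABPA and GABPB1 lay just above 1, although the limits of the samples overlapped, and that of GABPB2 included 1.

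The balance of the subunits differed by less than its error. Summed β-subunit FPKM was 1.59 times (1.42 to 1.78) that of GABPA in WT cells and 1.61 times (1.43 to 1.80) in PERK-KO cells. GABPB1 made up 71.6% (67.6 to 75.6) of the β-subunit FPKM in WT against 74.7% (70.8 to 78.6) in PERK-KO. Both relations had overlapping intervals. Among ETS factors over the filter, an FPKM of 1 or more in either sample, GABPA ranked 6 of 15 in WT cells and 5 of 15 in PERK-KO cells. ETS2 stood above GABPA in WT cells with limits apart (9.09 to 10.8 for ETS2). In PERK-KO cells ETS2 stood below it with overlapping limits (7.36 to 8.97 for ETS2), so their order there was not separated.

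NRF1, TFAM and ESRRA had measured ratios within a few percent of 1. NRF1 (chromosome 7 from 129251555 to 129396922, plus strand, 11 exons) had an FPKM of 8.06 (7.29 to 8.84) in WT against 8.06 (7.24 to 8.88) in PERK-KO, a ratio of 0.9999 (0.872 to 1.15). TFAM (chromosome 10 from 60144903 to 60158990, plus strand, 7 exons) had 26.5 (25.1 to 28.0) and 27.3 (25.8 to 28.8), a ratio of 1.03 (0.953 to 1.11). ESRRA (chromosome 11 from 64073044 to 64084210, plus strand, 7 exons), which encodes the orphan receptor ERRα, had 23.9 (22.0 to 25.7) and 24.6 (22.6 to 26.5), a ratio of 1.03 (0.924 to 1.15). All 3 pairs of limits overlapped, and the counting intervals of the ratio reached 1.15 for NRF1 and ESRRA. TFAM was 3.29 times (2.95 to 3.67) as high as NRF1 in WT cells and 3.39 times (3.02 to 3.79) in PERK-KO cells.

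Of the PGC-1 coactivators, PPRC1 and PPARGC1B were higher in PERK-KO cells with limits apart, and PPARGC1A, below the filter in both samples, had overlapping limits. PPRC1 (chromosome 10 from 103892787 to 103910090, plus strand, 14 exons), encoding PRC, the coactivator known to respond to growth signals, had an FPKM of 18.3 (17.5 to 19.2) in WT against 26.9 (25.8 to 28.0) in PERK-KO. Its limits lay apart and the ratio was 1.47 (1.38 to 1.56), just inside the 1.5-fold threshold. PPARGC1B (chromosome 5 from 149109815 to 149234585, plus strand, 12 exons), encoding PGC-1β, had 1.002 (0.859 to 1.14) and 1.63 (1.43 to 1.83), also with limits apart and a ratio of 1.63 (1.36 to 1.96). PPARGC1A (chromosome 4 from 23793644 to 23891700, minus strand, 13 exons) had 0.233 (0.146 to 0.321) and 0.379 (0.258 to 0.501). Its limits overlapped and its ratio of 1.63 had a wide interval, 1.004 to 2.63.

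PPARGC1A was low but above a floor set here at 3 fragments, worth about 0.0244 FPKM in WT against 0.0290 in PERK-KO. This floor was chosen and not measured, and its FPKM was worked out from the width of the limits read as counting error alone. PPRC1 held 93.7% (92.9 to 94.5) of the summed FPKM of the 3 coactivators in WT against 93.0% (92.3 to 93.8) in PERK-KO. PPARGC1B held 5.12% (4.41 to 5.83) and 5.64% (4.97 to 6.31), and PPARGC1A held 1.19% (0.759 to 1.63) and 1.31% (0.904 to 1.72). The shares had overlapping intervals, while the sum of the family went from 19.6 to 28.9 FPKM.

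YY1 (chromosome 14 from 100705102 to 100744804, plus strand, 5 exons) had the largest absolute difference of the 10 genes, 14.7 FPKM. It had 36.8 (35.1 to 38.6) in WT against 51.5 (49.3 to 53.7) in PERK-KO, a ratio of 1.40 (1.31 to 1.49) with limits apart. Its intronless relative YY2 on the X chromosome went the other way, from 11.0 (10.1 to 11.95) to 8.87 (7.98 to 9.76), also with limits apart. Reads shared between YY1 and YY2 could have been divided by the authors' counting, so both values carry that uncertainty. The TFAM pseudogene TFAMP1 had limits of 2.25 to 3.30 FPKM in WT and of 2.42 to 3.58 in PERK-KO, which overlapped.

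Each count of members was set beside the same count over all genes. Of the 9 genes over the filter, 1 was higher in PERK-KO by over 1.5-fold (PPARGC1B) and 0 were more than 1.5-fold lower. Among all 14594 genes over the filter, 10.1% were more than 1.5-fold higher and 7.54% more than 1.5-fold lower, and 1 of 9 is close to this background. By limits that did not overlap, whatever the fold, 3 of the 9 were higher (PPARGC1B, PPRC1 and YY1) where the background was 26.1%, and 0 were lower where it was 18.7%. The share higher by limits was likewise not far from its background. The median log2 ratio of the 9 was 0.19, and that of all genes over the filter was 0.04. With the length trend described below subtracted, the median of the 9 was 0.06. The split of all genes depended on which scaling was used. As deposited, 1481 genes were higher and 1100 lower by more than 1.5-fold. After both samples were set to the same median, 957 were higher and 1731 lower, and every log2 ratio moved by -0.13. PPARGC1B was no longer past 1.5-fold on that scale. A common 75th percentile moved every log2 ratio by -0.0095, with 1443 higher and 1141 lower, and PPARGC1B stayed past 1.5-fold. PPARGC1B, PPRC1 and YY1 were still higher in PERK-KO cells with each pseudocount, each rescaling and the length trend subtracted. The filters and summed rows left the ratio of a gene unchanged or left the gene out, and the fold and overlap settings gave no ratio.

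**Figure D3:**
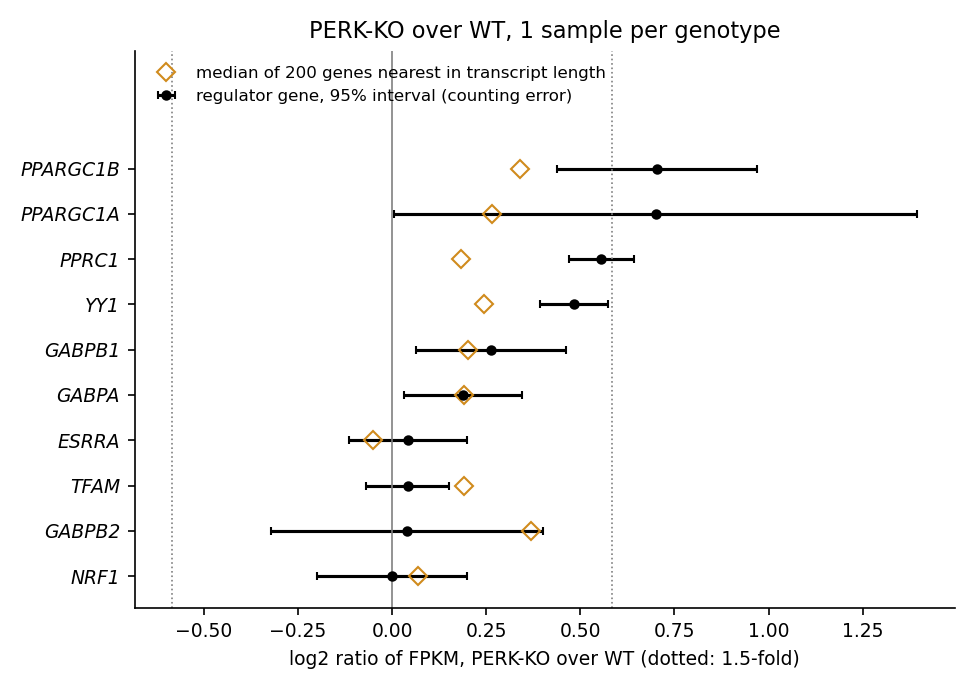
Log2 ratio of FPKM in PERK-KO over WT for each regulator gene (points, with 95% intervals for counting error), with the median of the 200 genes nearest in transcript length as open diamonds and dotted lines at 1.5-fold. The intervals of PPARGC1B, PPRC1 and YY1 lie above their diamonds, that of TFAM lies below its diamond, and the other 6 intervals include theirs.

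Transcript length moved with the ratio across the 13513 genes over the filter that had a matched length. The 200 genes nearest to 1000 bases had a median log2 ratio of -0.34, those nearest to 2000 bases -0.08, and those nearest to 5000 bases 0.20. The regulators are long, with a median canonical transcript of 5226 bases over the 9 genes, compared with 3190 bases for those genes. The cause of this trend was not tested. With the running median subtracted, the log2 ratio of GABPA went from 0.19 to -0.0020 and that of GABPB1 from 0.26 to 0.06. GABPB2, with a transcript of 8807 bases, went from 0.04 to -0.33, and TFAM went from 0.04 to -0.15. PPRC1 kept 0.37, PPARGC1B 0.37 and YY1 0.24, and PPARGC1A 0.44 with its wide interval. NRF1 moved to -0.07 and ESRRA to 0.09. No member was past 1.5-fold on this scale in either direction.

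Some of the members overlap other genes, and no source used here states that the libraries kept the strand, so that reads in shared stretches cannot be told apart. The start of GABPA overlaps by 708 bases with ATP5J, a gene on the opposite strand for a subunit of ATP synthase. ATP5J had 111 (103 to 119) FPKM in WT against 96.4 (88.6 to 104) in PERK-KO, with overlapping limits. The limits of GABPA overlapped too, and the part of shared reads in its values was not tested. The antisense gene GABPB1-AS1 overlaps GABPB1 by 1235 bases and had 4.81 and 4.41 FPKM. FLJ10038 lies within GABPB1 over 5942 bases and had 1.30 and 1.06 FPKM, with overlapping limits. RNA5SP244, a 5S rRNA pseudogene of 111 bases inside NRF1, had limits from 0 to 113 FPKM in WT and from 0 to 134 in PERK-KO. The end of ESRRA overlaps by 46 bases with TRMT112 on the opposite strand, a far more abundant transcript at 818 FPKM in WT against 627 in PERK-KO.

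The wider network was described with gene lists that held none of the 10 members, as counts beside the background above. The lists were chosen with earlier results of these data known, so each count only describes its list. Counts by limits apart were not set against genes of like length. Of 23 partners and modifiers of these factors, all passed the filter, 7 were higher in PERK-KO by over 1.5-fold (10.1% of all genes) and 0 more than 1.5-fold lower (7.54%). By limits apart, 17 were higher (26.1% of all genes) and 2 lower (18.7%). Their median log2 ratio was 0.43, or 0.30 with both samples set to the same median. MYC, a growth-related transcription factor, had 14.1 FPKM in WT against 34.5 in PERK-KO (ratio 2.44), the acetyltransferase gene EP300 had 8.19 and 15.4 (1.88), and the kinase gene MTOR had 7.44 and 13.7 (1.84), all with limits apart. PRMT1, an arginine methyltransferase and the most abundant of the list, had 251 and 271 with overlapping limits. The 2 lower by limits apart were PRKAA1 and NCOR1. PRKAA1, a catalytic subunit of AMPK, had 15.7 and 13.2, and the corepressor gene NCOR1 had 27.4 and 22.6. The other AMPK catalytic subunit gene of the list, PRKAA2, went the other way, with 3.09 and 4.16 and limits apart. The 23 genes also have long transcripts, with a median of 5779 bases. Their median log2 ratio was 0.28 with the length trend subtracted, when 2 genes were past 1.5-fold higher and 1 lower.

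The 15 genes that transcribe and copy mitochondrial DNA alongside TFAM all passed the filter. Their median log2 ratio was -0.14, or -0.27 with both samples set to the same median. Of the 15, 1 was more than 1.5-fold higher (10.1% of all genes) and 2 were more than 1.5-fold lower (7.54%). By limits apart, 4 were higher (26.1% of all genes) and 3 lower (18.7%). With the length trend subtracted the median was 0.04, and 1 gene was past 1.5-fold in each direction. TFB2M, which works with TFAM and the polymerase POLRMT to start transcription, had 2.16 FPKM in WT against 4.28 in PERK-KO (ratio 1.99). The termination-factor family genes MTERFD3 and MTERF had 10.5 and 6.66 (ratio 0.635) and 5.94 and 3.84 (0.646). All 3 had limits apart. SSBP1, a binding protein of single-stranded mitochondrial DNA and the most abundant of the list, had 164 and 148 with overlapping limits. POLRMT had 21.7 and 25.3 FPKM, POLG 25.0 and 34.5, TOP1MT 21.8 and 25.9, and MGME1 33.7 and 25.8, all with limits apart.

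Among 14 nuclear receptors, 10 passed the filter, with 1 more than 1.5-fold higher and 0 lower, where the shares of all genes were 10.1% and 7.54%. By limits apart, 2 were higher (26.1% of all genes) and 2 lower (18.7%). Their median log2 ratio was 0.08, but -0.05 with both samples set to the same median and 0.02 with the length trend subtracted. RARA, a retinoic acid receptor, had 6.49 FPKM in WT against 9.88 in PERK-KO (ratio 1.52) with limits apart, and RXRA was the most abundant in WT cells, at 37.3 against 33.2. The other ERR genes, ESRRB and ESRRG, were below an FPKM of 1 in both samples, so ESRRA was the only ERR gene over the filter. Of 26 other ETS factors, 14 passed the filter, 2 more than 1.5-fold higher (10.1% of all genes) and 1 lower (7.54%). By limits apart, 4 were higher (26.1%) and 3 lower (18.7%). Their median log2 ratio was 0.16, which became 0.02 with both samples set to the same median and 0.0055 with the length trend subtracted. ETV3 had 4.09 and 8.42 (ratio 2.06), ELK3 had 2.26 and 3.95 (1.74), and ETV6 had 1.80 and 0.836 (0.464), all with limits apart. ETV6 passed the filter through WT alone. The ETS median was 0.23 when an FPKM of 1 was asked of both samples, which left out ETV6. ELK1 was the most abundant ETS gene at 45.6 and 57.9 FPKM.

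Most of the target genes measured were lower in PERK-KO cells. Of 18 textbook NRF1 and GABP targets of respiration, 5 were lower in PERK-KO by over 1.5-fold (7.54% of all genes) and 0 were higher by that much (10.1%), with a median log2 ratio of -0.29, or -0.42 with both samples set to the same median. By limits apart, 14 were lower (18.7% of all genes) and 2 were higher (26.1%). The cytochrome c oxidase genes COX6C, COX6B1 and COX5B had the smallest ratios, 0.547, 0.582 and 0.583, and COX7C was the most abundant at 1685 FPKM in WT against 1118 in PERK-KO. ALAS1, the entry enzyme of heme synthesis, and the import receptor gene TOMM20 were the 2 genes higher with limits apart, at ratios of 1.30 and 1.36. These targets are short, with a median transcript of 889 bases, where genes of like length had a median of -0.34. With the length trend subtracted their median was -0.02 and 1 gene was past 1.5-fold lower. The difference between the target list and the regulators was not tested.

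**Figure D4:**
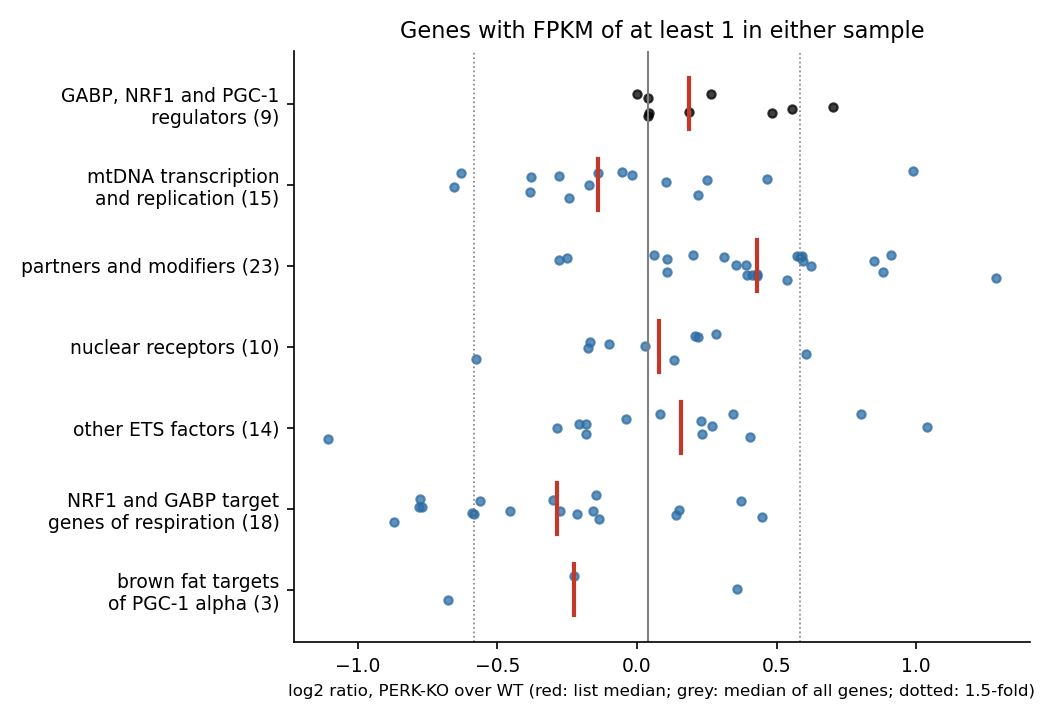
Log2 ratio of PERK-KO over WT for the genes of each list that reached 1 FPKM in either sample (number in brackets). Each point is a gene, red bars are list medians, the grey line is the median of all genes and dotted lines mark 1.5-fold. The median is 0.19 for the regulators, 0.43 for their partners and -0.29 for the respiratory targets. With the length trend subtracted (not drawn), these medians are 0.06, 0.28 and -0.02.

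Of 8 genes listed as brown fat targets of PGC-1α, 3 passed the filter, with 1 more than 1.5-fold lower (PDK4) and 0 higher, where the shares of all genes were 7.54% and 10.1%. PRDM16 was kept in this list, although the study counts it among the master regulators of brown adipocyte differentiation. The median log2 ratio of the 3 was -0.22. It was 0.07 when an FPKM of 1 was asked of both samples, which left out PDK4 and kept only PRDM16 and CPT1B. The median of the 3 was -0.36 with both samples set to the same median and -0.21 with the length trend subtracted. PRDM16 had 1.12 FPKM in WT against 1.43 in PERK-KO, CPT1B had 6.81 and 5.82, and PDK4 had 1.03 and 0.647 (ratio 0.626), each with overlapping limits. UCP1, CIDEA, COX7A1 and ELOVL3 were listed at 0 in both samples, and DIO2 was at 0.0562 in WT cells and listed at 0 in PERK-KO cells.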

How the data were processed

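RNA of WT and PERK-KO HEK293 cells was sequenced after poly(A) selection, with 1 library per genotype. The authors aligned reads to GRCh37/hg19 and computed FPKM; the submitters' processing notes name TopHat2 2.0.13 and Cufflinks 2.2.1. The deposited tables hold FPKM per gene with confidence limits, taken as 2 SD on either side of the value. Depth was not in the tables. Ratios were PERK-KO over WT without a pseudocount, with 95% intervals from both SDs on the log scale. Genes reaching 1 FPKM in either sample were counted, past 1.5-fold, a rounded form of the study's threshold. Canonical transcripts came from GENCODE 44 on GRCh37 (all 10 members and 92.6% of genes over the filter matched). Count tests were not used, because FPKM is not a count. All members, EIF2AK3, and for each list up to 3 genes per direction past 1.5-fold with limits apart and the most abundant gene were to be named. Others (such as POLRMT, PRKAA1, PRKAA2, NCOR1, ALAS1, TOMM20, overlapping genes, copies and genes below the filter) were named after their values were seen. With 2 samples no likeness of pattern was computed. Members and lists were chosen with earlier results of these data known. Only the 1.5-fold call was tried on simulated data, with abundant genes and larger changes than those of the members. The intervals, shares and length trend were not covered by it. Tables were handled with pandas 2.3.3 under Python 3.11.15, computed with scipy 1.17.1 and numpy 2.4.6, and drawn with matplotlib 3.10.9. Alternatives covered filters, pseudocounts of 0.1 and 1, scaling, fold, overlap of limits, summed rows and the length trend.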

Additional observations from a re-analysis of the deposited data

How the results depend on the processing

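No paired analysis was possible because each genotype had 1 sample, and no replicate could be left out for the same reason. The number of regulators more than 1.5-fold higher, 1, became 2 with no filter (PPARGC1A was added) and 0 with an FPKM of at least 5 in either sample, a pseudocount of 1, a common median, a fold of 2 or the length trend subtracted; the number lower was 0 throughout. Over all genes, lower and higher counts of 1100 and 1481 became 1942 and 2496 with no filter, 702 and 872 with an FPKM of at least 5, 1731 and 957 with a common median, 304 and 479 with a fold of 2, and 703 and 864 with the length trend subtracted. A pseudocount of 1 gave 944 higher genes, and a common 75th percentile gave 1141 lower and 1443 higher genes. The log2 ratios ranged from 0.24 to 0.48 for YY1, 0.37 to 0.56 for PPRC1, 0.37 to 0.70 for PPARGC1B and 0.16 to 0.70 for PPARGC1A. Those of GABPA, GABPB2, TFAM and ESRRA changed sign, from 0.19 to -0.0020, 0.04 to -0.33, 0.04 to -0.15 and 0.04 to -0.09 at the lowest. GABPB1 stayed between 0.06 and 0.26. PPARGC1A rests on few fragments, and no value here covers variation between cultures.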
